A study of Pseudotsuga menziesii with 72 samples.

Results

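The comparison is of Douglas-fir (Pseudotsuga menziesii) needles on the second evening of sampling with the same trees' needles on the first evening. Its members are 24 of the 72 libraries of a 2-day series, chosen by the hour in the library titles. The second evening has 12 libraries, collected at 18:00 and 22:00 on day 2 (hours 40 and 44 of the series), and the first evening has 12 libraries, collected at 18:00 and 22:00 on day 1 (hours 16 and 20). Each library of the second evening was paired with that of the same tree and clock time on the first evening, which gave 12 pairs, 6 at each clock time. The 6 trees, 1A, 1B, 2A, 2B, 3A and 3B, were 3 years old and form 3 half-sib families of 2 trees. They came from a single low-elevation seed source in the Oregon Siskiyou, grew in Corvallis, and the labels name no treatment. Each sample was 8 to 12 needles of the 2012 growth, taken from branches on 4 sides of a tree, and polyA RNA was sequenced as a strand-specific library. Clock times rest on the stated start at 2:00 on 7 September and a 4 h interval. The titles were followed, although another label, that of the collection time, differs from them in 22 of the 24 libraries. Both evenings lie after a shift of levels known in this series between 14:00 and 18:00 on day 1, which was not measured again here.

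A conifer needle in the evening passes from photosynthesis to the use of stored carbohydrate, and many plant transcripts follow the circadian clock, light and temperature together. In early September the sun is still up at 18:00 in Oregon, and it has set by 22:00. Samples of the same clock time share the phase of the clock, so a comparison between dates at one clock time asks what differs from one evening to the next apart from that phase. The deposited tables name transcripts by identifiers without gene names, so no transcript below can be tied to a function.

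The second evening held 17.5 to 34.4 M counts (median 25.2 M) and the first evening 14.0 to 55.9 M (median 21.9 M). The mean difference within trees was 0.683 M, higher in 3 of 6 trees (exact permutation test over trees, two-sided p = 0.8125, smallest possible p = 0.03125). The deepest library was that of tree 3A at 18:00 on day 1. All 24 libraries lay nearest another library of their own tree, and trees took up 76.2% of the variation among their log2 levels, against 7.04% for the clock time and 2.71% for the date. Pools held 6 libraries, and the labels do not say which libraries shared one. Each evening is 1 date, so the date cannot be told apart from whatever else set its collections apart. Only 6 trees stand behind the p-values. The tests took the 12 pairs as separate, so likeness between the changes of pairs from the same tree is not allowed for. Levels are CPM, counts relative to the trimmed-mean-scaled library total, not corrected for length. In whole needles, fewer cells of a type and less RNA per cell cannot be told apart.

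The second evening differed from the first in many transcripts, about as often upward as downward. Averaged over both clock times, 7830 of 41765 transcripts passed (18.7%; edgeR's quasi-likelihood test with Benjamini-Hochberg adjustment, adjusted p under 0.05). On day 2, 3960 of them stood higher (9.48%) and 3870 lower (9.27%). Most changes were small: the median size was 0.34 on the log2 scale (interquartile range 0.24 to 0.53). Large changes leaned upward. At least 2-fold changes passed for 387 transcripts (0.927%). Of the transcripts that passed, 284 rose and 103 fell by at least 2-fold, and 27 rose and 2 fell by at least 4-fold. The count was 4877 without tree 2A, which lowered it most, and 5360 to 7923 when another tree was left out.

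Abundant transcripts passed more often, and with smaller changes. In 4 equal classes of rising abundance (median 0.485, 1.39, 5.58 and 30.1 CPM), 6.00%, 11.5%, 21.4% and 36.1% passed. The median size of the changes that passed was 0.79, 0.53, 0.34 and 0.26 on the log2 scale in the same order. Low counts need larger changes to pass, so these sizes do not compare the classes themselves. In the most abundant class 74 transcripts rose and 6 fell by at least 2-fold.

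More transcripts passed between the dates at 18:00 than at 22:00, a gap in counts that was not itself tested, and a core passed at both. At 18:00, 4605 transcripts passed (11.0%; 2377 higher and 2228 lower on day 2), and at 22:00, 3125 passed (7.48%; 1709 higher and 1416 lower). The median size of a change that passed was 0.49 at 18:00 and 0.44 at 22:00 on the log2 scale. Both clock times passed in the same direction for 1388 transcripts (3.32%), 743 higher (1.78%) and 645 lower (1.54%) on day 2, and in opposite directions for 23 (0.0551%). The 2 clock times have no library in common, though they share the trees and the estimate of each transcript's spread. With each clock time fitted alone, 1051 transcripts passed at both. The share that passed at both was 0.354% in the least abundant of the 4 classes and 8.96% in the most abundant. The part of abundance and of the shared spread in the overlap was not tested. Of the transcripts higher at 18:00, 31.3% were also called higher at 22:00, where 4.09% of all tested were. Of those lower at 18:00, 28.9% were also called lower at 22:00, where 3.39% of all were. Read from the other side, 43.5% of those higher and 45.6% of those lower at 22:00 had passed in the same direction at 18:00. These counts depended on single trees. At 18:00 the count was 2430, 2654 and 2451 without 1B, 2A and 2B, and at 22:00 it was 1005 and 1584 without 2A and 2B. For both clock times it was 878, 467 and 598 without 1B, 2A and 2B, and of the 467 transcripts called without 2A, 458 were among the 1388.

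**Figure D1:**
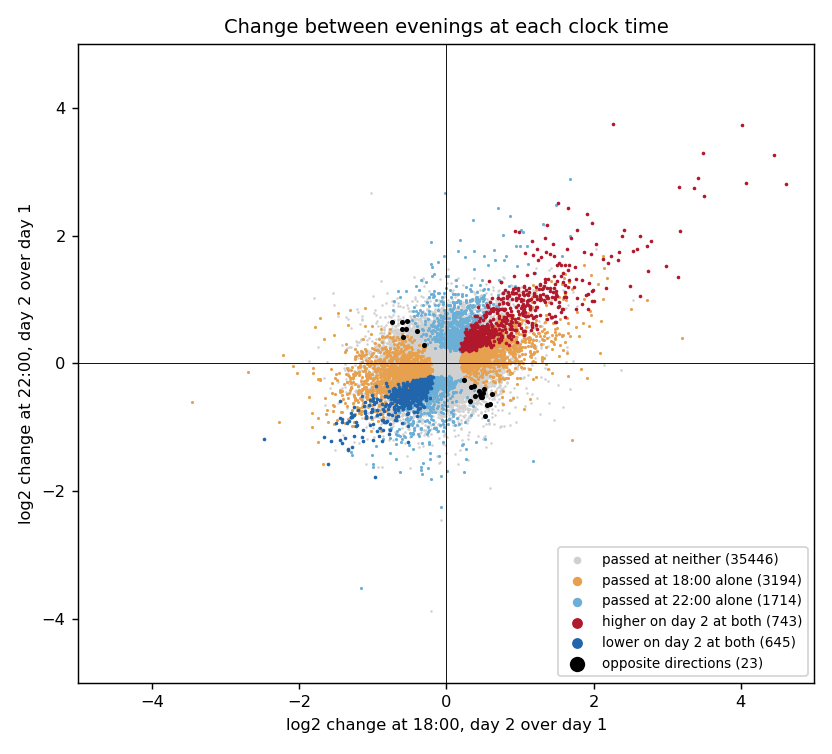
The plot of change at both clock times sets the log2 change at 18:00 (horizontal) against that at 22:00 (vertical), day 2 over day 1, for the 41765 transcripts tested, each a point coloured by where it passed. The 743 transcripts higher at both times reach further from the origin than the 645 lower at both, and the 23 that passed in opposite directions lie in the quadrants of opposite sign.

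Transcripts that passed at both clock times had changes of similar median size at 18:00 and 22:00. The median log2 change of the 743 risers was 0.55 at 18:00 and 0.50 at 22:00, and that of the 645 fallers was −0.44 at 18:00 and −0.43 at 22:00. Risers had the larger change at 18:00 in 435 of 743 cases and fallers in 346 of 645. The change at both times reached 2-fold in 127 risers and in 15 fallers. Of the risers 536 were higher in all 12 pairs, and of the fallers 433 were lower in all 12, where over all transcripts 2.22% were higher and 1.79% lower in every pair. The calls were made from these same pairs, so this agreement follows in part from the selection and is no separate evidence. The same holds for the similar medians, since a call was required at each clock time. The median level was 20.1 CPM for the 743 risers and 27.1 CPM for the 645 fallers.

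The largest shared rises were 4.13- to 5.09-fold on average and ran through all 6 trees. They were chosen as the 5 largest mean changes among transcripts of at least 5 CPM that passed at both clock times with all 12 pairs upward. The largest was that of psme_t008504. At 18:00 it had a lowest, median and highest level of 19.0, 39.7 and 74.1 CPM on day 2, against 3.46, 5.22 and 8.88 CPM on day 1. At 22:00 it had 10.9, 30.8 and 47.8 CPM on day 2, against 3.47, 6.51 and 14.2 CPM on day 1. The dates did not overlap at 18:00, and at 22:00 the lowest tree of day 2 lay under the highest of day 1. Its log2 change was 2.78 ± 0.18 at 18:00 (SE, adjusted p = 6.08e-07) and 1.92 ± 0.17 at 22:00 (adjusted p = 0.000118).

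Another 4 transcripts rose by like amounts, and for each of them too the dates stood apart at 18:00 and overlapped at 22:00. For psme_t024828 the levels at 18:00 were 91.1, 137 and 249 CPM on day 2 (lowest, median and highest of 6 trees), against 12.0, 21.4 and 49.8 CPM on day 1. At 22:00 they were 53.3, 155 and 432 CPM on day 2, against 14.1, 34.4 and 158 CPM on day 1, a wider range among trees than at 18:00 on either date. Its mean log2 change over both times was 2.31 ± 0.18 (adjusted p = 2.93e-07). For psme_t015031 the 18:00 levels were 54.6, 78.2 and 154 CPM on day 2, against 8.66, 14.0 and 32.2 CPM on day 1, a mean log2 change of 2.04 ± 0.17 (adjusted p = 5.46e-07). At 22:00 psme_t015031 stood at 25.5, 96.6 and 214 CPM on day 2, against 8.29, 23.4 and 83.0 CPM on day 1. For psme_t042119 the 18:00 levels were 21.8, 50.8 and 98.2 CPM on day 2, against 3.59, 11.8 and 21.6 CPM on day 1, a mean log2 change of 2.25 ± 0.18 (adjusted p = 3.53e-07). At 22:00 psme_t042119 stood at 11.4, 29.8 and 248 CPM on day 2, against 3.14, 7.22 and 32.2 CPM on day 1, and its highest value was that of tree 2A.

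The least abundant of the 5 had the steepest change at 18:00. For psme_t045958 the 18:00 levels were 1.79, 5.76 and 16.3 CPM on day 2, against 0.260, 0.682 and 1.73 CPM on day 1, a log2 change of 3.15 ± 0.29 (adjusted p = 5.00e-06). At 22:00 it had 1.30, 8.25 and 29.4 CPM on day 2, against 0.669, 2.95 and 9.89 CPM on day 1. There psme_t045958 changed by 1.36 ± 0.25 (adjusted p = 0.00314), and the difference between the clock times was −1.79 ± 0.39 (adjusted p = 0.0698). In all 5 the change was larger at 18:00, and for none did the difference between clock times pass (adjusted p = 0.0698 to 0.820). Background for these statements is that the 6 libraries of each date did not overlap at 18:00 in 0.771% of all transcripts, and at 22:00 in 0.371%.

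**Figure D2:**
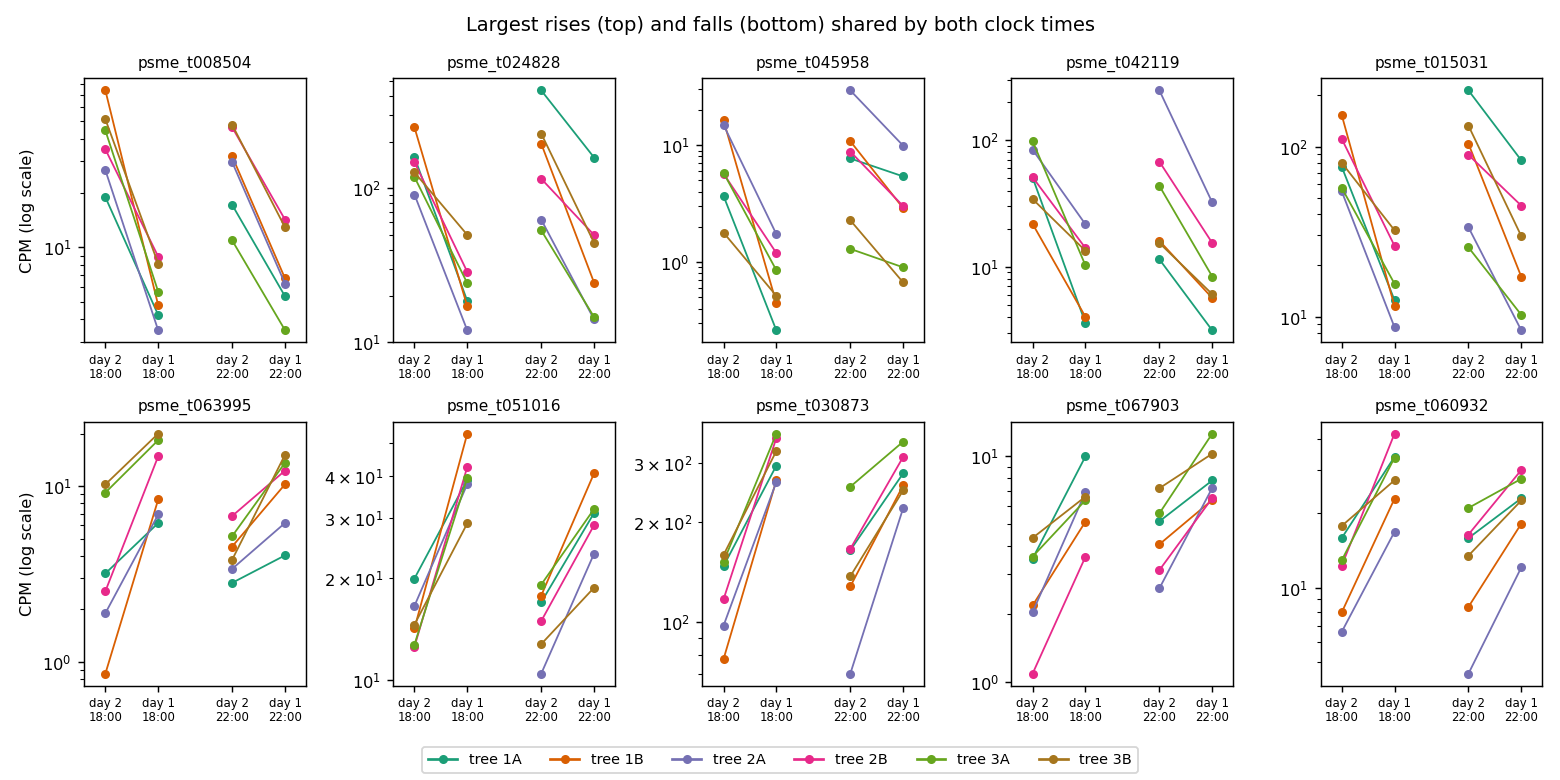
The plot of single libraries shows CPM on a log scale for the 5 largest rises (top) and 5 largest falls (bottom) that passed at both clock times, with day 2 left of day 1 and a line joining the 2 libraries of a tree. All 12 lines of a panel run the same way, downward to day 1 in the top row and upward in the bottom row.

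The largest shared falls were smaller than the largest rises. By the same rule with all 12 pairs downward, they were 2.09- to 2.65-fold. The transcript psme_t030873 had 77.6, 132 and 159 CPM at 18:00 on day 2 (lowest, median and highest of 6 trees), against 263, 310.1 and 367 CPM on day 1. At 22:00 it had 70.2, 151 and 255 CPM on day 2, against 219.7, 268 and 347 CPM on day 1. Its dates did not overlap at 18:00, and at 22:00 tree 3A of day 2 lay within the range of day 1. The log2 change was −1.35 ± 0.12 at 18:00 (adjusted p = 4.23e-06) and −0.94 ± 0.12 at 22:00 (adjusted p = 0.000358).

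A second fall of close size left the dates apart at 18:00 and nearly so at 22:00. The levels of psme_t051016 at 18:00 were 12.5, 14.4 and 19.9 CPM on day 2, against 29.0, 39.3 and 53.3 CPM on day 1. At 22:00 they were 10.4, 15.95 and 19.1 CPM on day 2, against 18.7, 29.9 and 40.8 CPM on day 1. Over both times psme_t051016 changed by −1.17 ± 0.08 on the log2 scale (adjusted p = 2.03e-07). For psme_t060932 the 12 libraries of day 2 ranged over 4.49 to 21.0 CPM (median 13.2), against 12.1 to 42.1 CPM (median 25.1) on day 1, and its mean log2 change was −1.06 ± 0.09 (adjusted p = 1.18e-06). For psme_t067903 they ranged over 1.09 to 7.22 CPM (median 3.55) on day 2, against 3.58 to 12.6 CPM (median 6.77) on day 1 (log2 change −1.07 ± 0.11, adjusted p = 4.97e-06). The deepest fall was that of psme_t063995, with 0.861 to 10.3 CPM (median 3.61) on day 2, against 4.05 to 19.98 CPM (median 11.3) on day 1 (log2 change −1.41 ± 0.17, adjusted p = 3.13e-05). In psme_t060932, psme_t067903 and psme_t063995 the dates overlapped at both clock times, while every pair pointed down.

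Very abundant transcripts also shifted, by small factors. The most abundant faller was psme_t040843. It had a lowest, median and highest level of 10593, 16304 and 18579 CPM on day 2, against 15778, 19116 and 22149 CPM on day 1 (n = 12 libraries each; mean log2 change −0.32 ± 0.06, adjusted p = 0.00165). For psme_t018551 these levels were 7147, 9928 and 13471 CPM on day 2, against 10522, 13327 and 15817 CPM on day 1 (log2 change −0.49 ± 0.07, adjusted p = 7.65e-05). Both were lower in 12 of 12 pairs although the ranges of the dates overlapped. The most abundant riser was psme_t022398, with 1411, 2145 and 4864 CPM on day 2, against 716, 1444 and 2533 CPM on day 1 (log2 change 0.72 ± 0.09, adjusted p = 2.90e-05). Next was psme_t013170, with 883, 1615 and 2927 CPM on day 2, against 586, 874 and 1508 CPM on day 1 (log2 change 0.82 ± 0.08, adjusted p = 2.74e-06). Both rose in 12 of 12 pairs, and the dates of psme_t013170 did not overlap at 18:00. In each the pair of tree 1B at 18:00 had the largest change at that time, 1.67 and 1.31 on the log2 scale.

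Followed over all 12 collections, with scaling over the 72 libraries, the largest rises and the largest falls each took more than one course. The median level of psme_t008504 over the 6 trees was 5.04 CPM at 18:00 and 6.21 CPM at 22:00 on day 1, then 7.46, 4.64, 21.3 and 37.8 CPM at 2:00, 6:00, 10:00 and 14:00 on day 2, before 38.8 and 29.3 CPM on the second evening. The medians of psme_t015031 also climbed from 6:00, with 17.4, 11.1, 23.0 and 42.1 CPM from 2:00 to 14:00 on day 2 and 75.9 and 94.0 CPM on the second evening. In both, the low point of the second day was at 6:00 and the climb began by 10:00, well before the second evening. Both had also risen on day 1, psme_t008504 from 1.79 CPM at 6:00 and psme_t015031 from 3.94 CPM at 6:00 to 22.9 CPM at 22:00. Medians of psme_t042119 from 2:00 to 22:00 on day 2 were 27.9, 9.15, 16.2, 61.1, 49.3 and 28.9 CPM, ending near their start. Those of psme_t045958 were 4.30, 1.61, 5.58, 4.26, 5.62 and 8.05 CPM. The falls of psme_t051016 and psme_t030873 had another form. They stood at medians of 37.9 and 301 CPM at 18:00 on day 1, above their medians at every other collection, and at 14.0 and 128 CPM at 18:00 on day 2, close to their levels of 14.1 and 122 CPM at 14:00 of that day. In psme_t063995 the median was 18.1 CPM at 6:00 on day 2 and declined through 7.31 and 5.57 to 2.78 CPM at 18:00. Levels before 18:00 on day 1 lie before the shift, and its part in them was not tested.

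**Figure D3:**
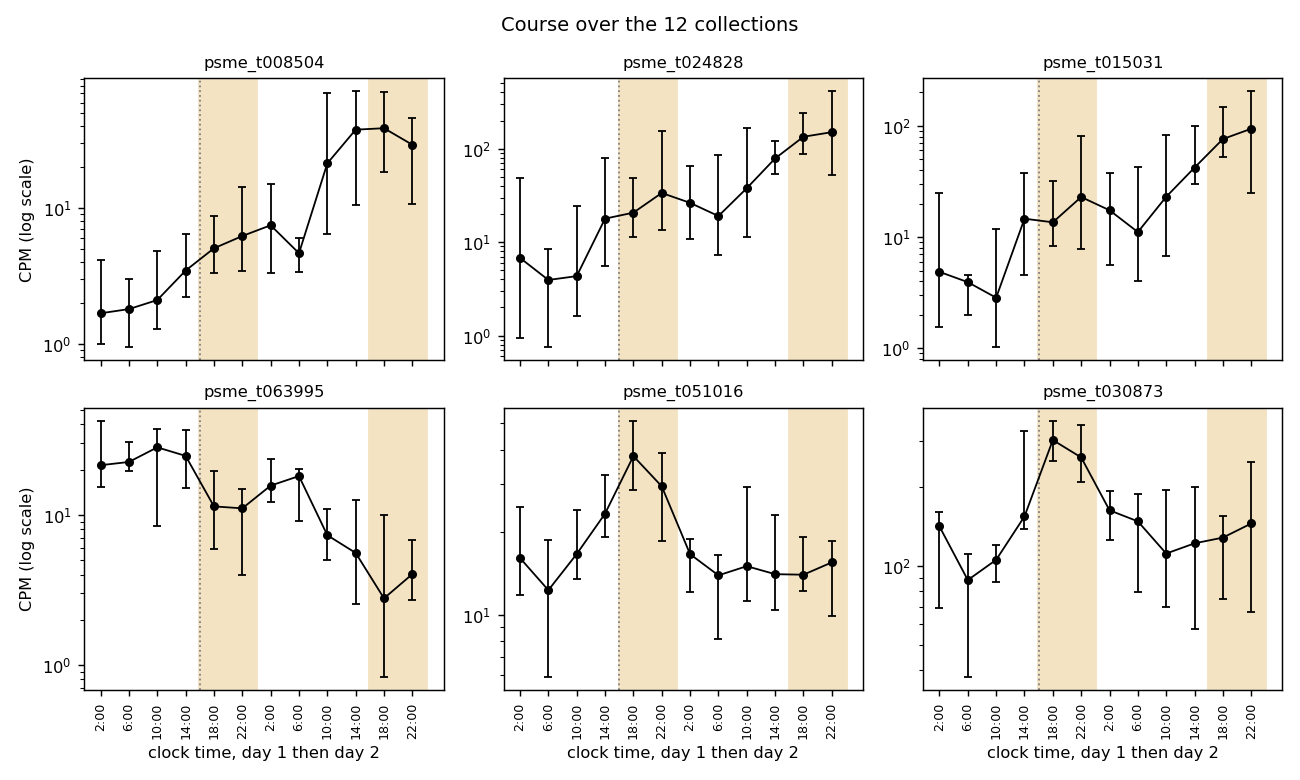
The plot of the course shows the median CPM of the 6 trees (points, log scale) with the lowest and highest tree (bars) at the 12 collections in order, for 3 risers (top) and 3 fallers (bottom). Shading marks the compared evenings, and the dotted line marks the shift before 18:00 on day 1. The 3 risers shown climb from 6:00 on day 2, and psme_t051016 and psme_t030873 are highest at 18:00 on day 1.

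Transcripts called at 1 clock time alone mostly had a change of the same sign at the other. At 18:00 alone 3194 transcripts passed (7.65%), and at 22:00 alone 1714 passed (4.10%). The 1619 risers of 18:00 alone had a median log2 change of 0.43 at 18:00 and 0.16 at 22:00, and 84.3% were above 0 at 22:00. The 1575 fallers of 18:00 alone had medians of −0.57 and −0.18, and 81.8% were below 0 at 22:00. For the 958 risers and 756 fallers of 22:00 alone the medians at 18:00 were 0.15 and −0.16, with 81.3% and 87.3% on the same side of 0. Among transcripts that passed at neither time, 62.1% had the same sign at both. The difference between the clock times itself passed for 91 transcripts (0.218%), 54 of them among the 3194, 16 among the 1714, 20 among the 23 of opposite direction, and 1 among the 1388. An unadjusted p under 0.05 was found for 4480. The 91 depended on single trees: without 1A, 1B, 2A, 2B, 3A or 3B the count was 13, 8, 5, 4, 53 or 138.

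The rises named for 18:00 alone were 2.75- to 2.97-fold at that time. They were the 3 largest with at least 5 CPM, all 6 pairs of 18:00 one way, no call at 22:00 and a difference between clock times that passed. The level of psme_t039203 at 18:00 was 18.1, 54.2 and 94.5 CPM on day 2 (lowest, median and highest of 6 trees), against 8.88, 18.4 and 24.1 CPM on day 1. At 22:00 it was 2.43, 4.61 and 10.6 CPM on day 2, against 2.54, 4.08 and 6.88 CPM on day 1. It stood higher at 18:00 than at 22:00 on both dates, and at 18:00 tree 2B of day 2 alone lay within the range of day 1 (log2 change 1.54 ± 0.13 at 18:00, adjusted p = 3.27e-06; 0.28 ± 0.16 at 22:00, adjusted p = 0.326; difference −1.26 ± 0.21, adjusted p = 0.0242). The transcript psme_t055151 also stood higher at 18:00, with a median of 20.3 CPM on day 2 (10.9 to 36.2), against 6.94 CPM on day 1 (4.51 to 13.5), and at 22:00 of 2.46 CPM on day 2, against 1.97 CPM on day 1 (difference −1.14 ± 0.22, adjusted p = 0.0422). For psme_t053350 the median at 18:00 was 26.7 CPM on day 2 (14.7 to 58.5), against 11.3 CPM on day 1 (3.80 to 20.7), and at 22:00 20.1 CPM on day 2, against 16.1 CPM on day 1 (difference −1.16 ± 0.22, adjusted p = 0.0422).

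The 3 falls named for 18:00 by the same rule had no call at 22:00. The median of psme_t054715 at 18:00 was 4.78 CPM on day 2 (2.33 to 9.83), against 11.2 CPM on day 1 (5.38 to 14.4), and at 22:00 it was 14.9 CPM on day 2 (10.6 to 19.7), against 17.3 CPM on day 1 (12.3 to 20.1). Its log2 change was −1.06 ± 0.11 at 18:00 (adjusted p = 1.75e-05) and −0.14 ± 0.10 at 22:00 (adjusted p = 0.490). For psme_t038412 the difference between clock times was 1.74 ± 0.23 (adjusted p = 0.00844) and for psme_t004894 it was 1.07 ± 0.20 (adjusted p = 0.0405). Both of these were nearly missing in some trees: psme_t038412 ranged over 0 to 13.6 CPM at 18:00 on day 2, against 0.0989 to 43.9 CPM on day 1, and psme_t004894 over 0.0835 to 15.4 CPM on day 2, against 0.158 to 33.3 CPM on day 1.

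The changes named for 22:00 by the same rule include a pair that left the dates apart. The transcript psme_t011307 had 12.1, 14.2 and 17.5 CPM at 22:00 on day 2, against 5.69, 7.14 and 11.9 CPM on day 1, with no overlap of the dates (log2 change 0.88 ± 0.11, adjusted p = 0.000226). At 18:00 its medians were 10.8 CPM on day 2 and 10.1 CPM on day 1. The transcript psme_t016454 had 12.7, 21.9 and 37.6 CPM at 22:00 on day 2, against 40.6, 51.6 and 77.0 CPM on day 1, again with no overlap, where 0.371% of all transcripts had none (log2 change −1.26 ± 0.18, adjusted p = 0.000768). It stood far lower at 18:00, at medians of 5.93 CPM on day 2 and 4.71 CPM on day 1. The other named changes at 22:00 were rises of psme_t029768 (1.14 ± 0.15, adjusted p = 0.000402) and psme_t042629 (0.70 ± 0.10, adjusted p = 0.000519) and falls of psme_t015975 (−0.52 ± 0.09, adjusted p = 0.00314) and psme_t005718 (−0.45 ± 0.08, adjusted p = 0.00194), each in 6 of 6 pairs. Their changes at 18:00 lay on the other side of 0 without a call. In the same order they were −0.54, −0.25, 0.28 and 0.12 (adjusted p = 0.0527, 0.130, 0.0570 and 0.334). Trees differed widely in psme_t029768, which at 22:00 ranged over 1.82 to 102 CPM on day 2, against 0.901 to 45.3 CPM on day 1.

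Opposite changes at the 2 clock times were few. Of the 23 transcripts, 15 were higher at 18:00 and lower at 22:00 on day 2, and 8 the reverse. The level of psme_t147405 at 18:00 was 6.61, 9.18 and 12.3 CPM on day 2, against 4.01, 5.99 and 8.11 CPM on day 1, and at 22:00 it was 3.28, 4.57 and 6.51 CPM on day 2, against 4.49, 6.73 and 9.01 CPM on day 1. All 6 pairs rose at 18:00 and all 6 fell at 22:00 (log2 changes 0.62 ± 0.12, adjusted p = 0.00272, and −0.49 ± 0.12, adjusted p = 0.0211). The other named transcript, psme_t013086, had 0 counts in all 4 evening libraries of tree 3B and in 3 of the 4 of tree 3A. It was higher on day 2 in 4 of 6 pairs at 18:00 and lower in 3 of 6 at 22:00, with 1 pair higher there, and had a difference of −1.23 ± 0.23 (adjusted p = 0.0472). That of psme_t147405 was −1.10 ± 0.17 (adjusted p = 0.0184). In the 14 transcripts named for a difference between clock times, that difference stopped passing in at least 1 of the 6 fits with a tree left out, and in up to 6 for psme_t011307. The calls at 18:00 or 22:00 of the 12 named for 1 clock time passed in all 6 such fits. These 12 were named for large changes with all 6 pairs one way, so this follows in part from the naming.

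**Figure D4:**
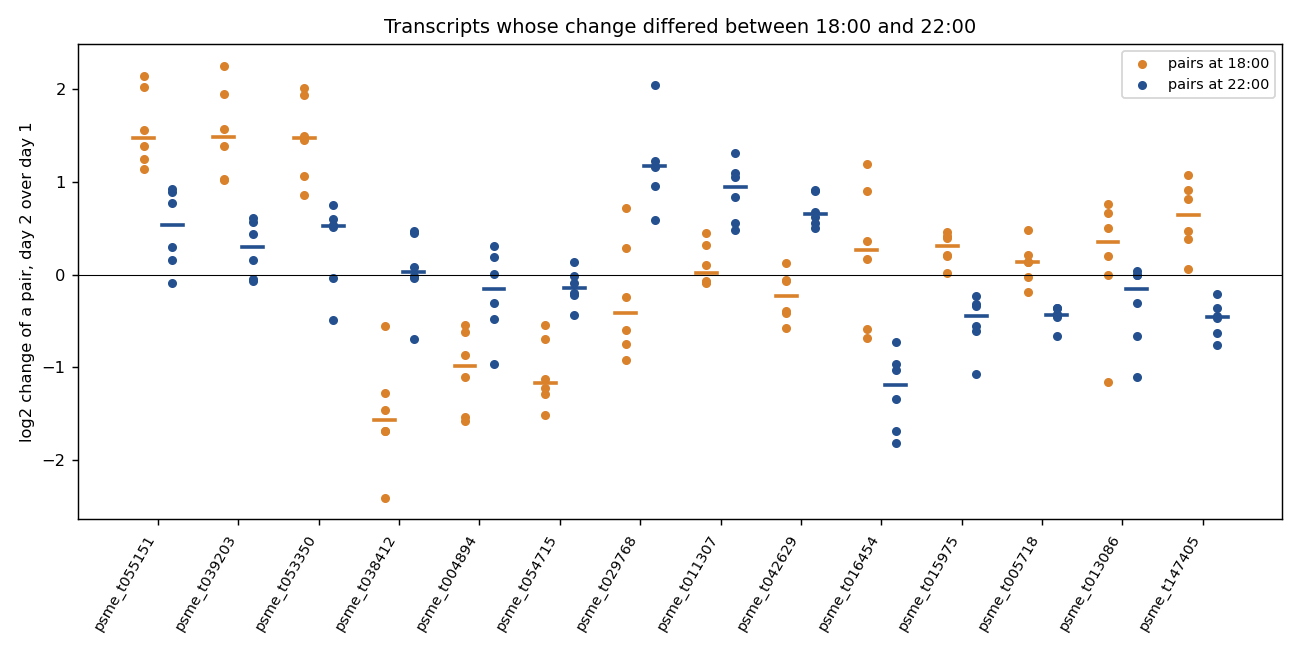
The plot of pairs shows, for the 14 transcripts named for a difference between clock times, the log2 change of each tree, day 2 over day 1, at 18:00 and at 22:00 (points) with the median of 6 trees (short lines). The medians of the first 6 transcripts lie farther from 0 at 18:00 than at 22:00, those of the next 6 the other way round, and psme_t147405 lies above 0 at 18:00 and below it at 22:00.

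Transcripts with their highest level in the early afternoon were more often higher on the second evening, and those highest at 6:00 more often lower. This was read as a description, without a test of its own. It came from libraries that the comparison did not use, the 24 collected from 2:00 to 14:00 on day 2. Classes were set by the clock time at which each transcript's mean log2 level was highest. These libraries share trees and date with the second evening. A level already raised or lowered by 14:00 on day 2 can therefore enter both the class and the evening change, and its part was not tested. Of the 12944 transcripts highest at 14:00, 18.1% were higher and 2.92% lower on the second evening. Of the 9991 highest at 6:00, 2.61% were higher and 19.6% lower. Those highest at 2:00 leaned to lower levels (4.13% higher, 9.75% lower), and those highest at 10:00 were closer to even (9.87% higher, 6.73% lower). The median log2 change over both clock times was 0.101 in the 14:00 class and −0.109 in the 6:00 class, small against the interquartile ranges of −0.038 to 0.246 and −0.259 to 0.028. The lean was present at both clock times: in the 14:00 class 12.6% were higher and 1.16% lower at 18:00, and 7.11% were higher and 1.65% lower at 22:00.

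The transcripts called at both times showed the same split. All of them had also passed in the mean, so they are part of the counts above and no separate evidence. Of the 743 risers 674 (90.7%) had a higher mean level at 14:00 than at 2:00 on day 2, of the 645 fallers 112 (17.4%), and of all transcripts 48.7%. Risers were highest at 14:00 in 70.5% and fallers highest at 6:00 in 63.6%, where 31.0% and 23.9% of all transcripts were. A change with clock time from 2:00 to 14:00 on day 2 passed for 81.0% of risers and 74.7% of fallers, where 43.5% of all passed. Median levels were 20.1 CPM in risers and 27.1 CPM in fallers, against 2.07 CPM in transcripts that passed at neither evening clock time. The part of abundance in these shares was not tested. With the course of day 1, whose collections from 2:00 to 14:00 lie before the shift, the split was weaker: 72.7% of risers, 41.9% of fallers and 49.3% of all transcripts stood higher at 14:00 than at 2:00. In the 14:00 class of day 1, 14.8% were higher and 6.08% lower on the second evening, and in the 6:00 class 5.97% were higher and 10.2% lower. In the 10:00 class 7.95% were higher and 13.3% lower, so that with day 1 the class most often lower was that of 10:00 and not that of 6:00.

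**Figure D5:**
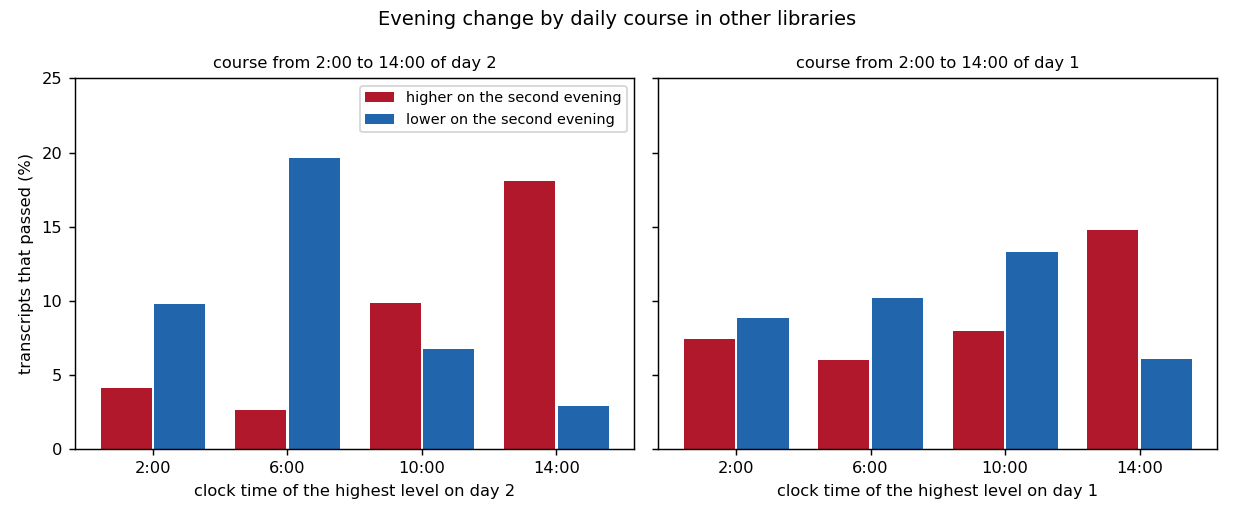
The plot by daily course shows the share of transcripts higher (red) and lower (blue) on the second evening, in percent, among those with their highest level at 2:00, 6:00, 10:00 or 14:00, read from day 2 (left) or day 1 (right). With day 2, 18.1% of the 14:00 class were higher and 19.6% of the 6:00 class were lower.

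Among the clock times from 2:00 to 14:00, the median date difference of these transcripts was largest in size at 14:00 and smallest at 6:00. These medians are not set against those of the evenings, by whose changes the transcripts were chosen. In the 48 libraries of 2:00 to 14:00, none of which entered the evening comparison, the median log2 difference of the 743 risers, day 2 minus day 1, was 0.111 at 2:00, 0.023 at 6:00, 0.257 at 10:00 and 0.407 at 14:00. That of the 645 fallers was −0.075, 0.045, −0.230 and −0.349. Over all transcripts the median lay between −0.040 and −0.007 at these times. At 14:00, 86.9% of risers were higher and 90.9% of fallers lower on day 2, where 49.2% of all were higher and 50.8% lower. Tested over the 4 clock times together, 341 risers (45.9%) passed as higher and 69 (9.29%) as lower, and 237 fallers (36.7%) passed as lower and 33 (5.12%) as higher, where 14.5% of all transcripts passed as higher and 16.4% as lower. Day 1 from 2:00 to 14:00 lies before the shift and day 2 after it, so the part of that shift in these values was not tested. The part of abundance in the shares that passed was not tested either. Of the abundant transcripts, psme_t022398 and psme_t013170 were also higher over these hours (log2 differences 1.56 ± 0.12, adjusted p = 4.85e-10, and 1.20 ± 0.11, adjusted p = 8.12e-09), while psme_t040843 and psme_t018551 stood at 0.05 ± 0.06 (adjusted p = 0.542) and −0.05 ± 0.06 (adjusted p = 0.597).

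The direction found in 5 trees was mostly found again in the tree left out. When the calls were made without tree 2A, 96.1% of the risers were higher and 94.0% of the fallers lower in 2A itself. Without 1B these shares were 91.2% and 94.1%, and without 2B they were 93.6% and 92.5%. They were lower in the other trees, at 82.0% and 83.0% in 1A, 82.6% and 79.7% in 3A, and 76.7% and 67.9% in 3B. Over all transcripts 47.9% to 52.4% were higher in a tree. Transcripts called at both clock times without a tree were higher in it in 89.6% to 99.2% of risers, and lower in it in 77.4% to 99.8% of fallers, with 3B lowest in both. The median change of the risers in the tree left out was 0.192 in 3A and 0.211 in 1A on the log2 scale, and 0.419 in 1B.

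A date effect that differed between trees was called for 13 transcripts (0.0311%), and 2989 had an unadjusted p under 0.05. The count was 3, 20, 50, 16, 7 and 19 without 1A, 1B, 2A, 2B, 3A and 3B, and 247 with DESeq2's likelihood ratio test. None of the 13 was among the 1388 that passed at both clock times. These are 3.32% of all tested, so none of 13 is close to that share. Fitted tree by tree, from 2 pairs each with a shared estimate of the spread, 1085 transcripts passed in 1B (533 higher, 552 lower), 250 in 2A (175 higher, 75 lower), and 57 to 86 in each of the other 4 trees. The smallest p was that of psme_t004860, whose levels in trees 2A and 2B moved in opposite ways. Tree 2A held 2.34 CPM at 18:00 and 2.56 CPM at 22:00 on day 2, against 16.6 and 25.5 CPM on day 1, and tree 2B held 20.2 and 16.01 CPM on day 2, against 2.63 and 2.86 CPM on day 1. The other 4 trees ranged over 5.86 to 437 CPM on day 2, against 5.88 to 500.0 CPM on day 1 (F of tree by date 123.2, adjusted p = 7.35e-06). The call of psme_t090563 rested on 1 library, tree 1A at 22:00 on day 1 with 267 CPM, where no other evening library exceeded 1.05 CPM, and it did not pass without 1A (adjusted p = 0.865). In psme_t030324, tree 3A held 0.292 and 1.57 CPM at 18:00 and 22:00 on day 2, against 2.51 and 9.52 CPM on day 1, and tree 3B held 4.10 and 30.8 CPM on day 2, against 1.48 and 4.40 CPM on day 1. Its call (adjusted p = 0.0172) was lost without 3A (adjusted p = 0.129).

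In 20 transcripts (0.0479%) all 12 libraries of one date lay above all 12 of the other, 14 with day 2 higher and 6 with day 2 lower, and the mean change passed in all 20. These were picked out after their values were seen. Of those with a mean over 100 CPM, psme_t014870 rose most, with 97.2, 154 and 292 CPM on day 2 (lowest, median and highest), against 30.7, 54.1 and 93.8 CPM on day 1 (log2 change 1.57, adjusted p = 3.31e-07). The most abundant of the lower ones was psme_t023365, with 169, 273 and 338 CPM on day 2, against 341, 414 and 499 CPM on day 1 (log2 change −0.65, adjusted p = 3.37e-05). The largest changes of the 20 were in transcripts with means of 4.55 and 4.95 CPM. Of these, psme_t029842 had 1.92, 4.94 and 18.5 CPM on day 2, against 0.0787, 0.553 and 1.26 CPM on day 1 (log2 change 3.85, adjusted p = 2.03e-07). Likewise psme_t026765 had 1.91, 5.33 and 30.1 CPM on day 2, against 0.0892, 0.765 and 1.88 CPM on day 1 (log2 change 3.45, adjusted p = 3.39e-07).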

How the data were processed

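Libraries were placed by the tree and hour in their titles. The authors deposited raw counts for 180879 transcripts. The submitters' processing notes name CASAVA 1.8 and Bowtie2 2.2.3, and which transcriptome reads were aligned to is not given. Another deposited table, attributed there to DESeq, holds counts divided by one size factor per library, a normalized signal, for 41382 transcripts. It served as an alternative only.

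From the 24 evening libraries, edgeR 4.0.16 (R 4.3.3) kept 41765 transcripts by filterByExpr, which hold 97.1% to 99.5% of the counts in a library. Trimmed-mean scaling and quasi-likelihood F tests used a block for each of the 12 tree and clock time pairs and a date term at each clock time (10 residual degrees of freedom), with Benjamini-Hochberg adjustment over all transcripts. The same tree gave both libraries of a pair: correlations of deviations from collection means were 0.645 to 0.855 within trees and at most 0.345 between trees. An SE is the log2 change divided by the square root of F.

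Named transcripts follow a rule: a mean of at least 5 CPM, then the 5 largest rises and falls at both times (all 12 pairs one way), the 3 each way at 1 time (6 of 6 pairs, and a difference between clock times that passed), 2 opposite, the 2 most abundant each way, and 3 by tree. Members, rule and tests were chosen with earlier results of these data known. Alternatives used DESeq2 1.42.0, limma 3.58.1 on log2 of the normalized signal plus 1, other filters, blocks and libraries, and each tree left out. The tests were first tried on simulated counts. Plots used matplotlib 3.10.9.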

Additional observations from a re-analysis of the deposited data

Results flagged for a closer look

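Single libraries or pairs stood far from the other 5 trees of their group in 6 of 74 groups examined, where chance gives about 3.7. Tree 3A at 18:00 on day 1 held 55.9 M counts, against 14.0 to 23.2 M in the other trees. Tree 2B at 22:00 on day 2 had a scaling factor of 1.14, against 0.970 to 1.02. In pairs, the log2 change of psme_t022398 at 18:00 was 1.67 in tree 1B (0.56 to 0.83 in the others), that of psme_t013170 at 18:00 was 1.31 in 1B (0.59 to 0.76), that of psme_t005718 at 22:00 was −0.66 in 3B (−0.46 to −0.36), and that of psme_t090563 at 22:00 was −9.52 in 1A (−0.51 to 1.50).

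The date effect differed between 18:00 and 22:00 for 91 transcripts, and between trees for 13. Among the named ones the log2 change at 22:00 minus that at 18:00 was −1.14 for psme_t055151, −1.26 for psme_t039203, −1.16 for psme_t053350, 1.74 for psme_t038412, 1.07 for psme_t004894 and 0.92 for psme_t054715. It was 1.68 for psme_t029768, 0.77 for psme_t011307, 0.94 for psme_t042629, −1.48 for psme_t016454, −0.80 for psme_t015975 and −0.57 for psme_t005718. For the transcripts of opposite change it was −1.23 for psme_t013086 and −1.10 for psme_t147405.

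The normalized table holds 247 transcripts that the raw counts lack, and 26 of them (10.5%) differed between the evenings in the limma fit on normalized values, 3 higher and 23 lower on day 2. In that fit 17.8% of all 41382 transcripts passed.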

How the results depend on the processing

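Of 107 recomputed counts, 60 stayed within 1.5 times the reported one, and of 761 recomputed values of named transcripts, 618 kept direction and call, 143 lost the call and 0 reversed. With no replicate block the counts were 552 for the mean, 115 at 18:00, 11 at 22:00, 6 at both and 0 for the difference between clock times. With a block by tree alone the difference count was 29, and in the 48 libraries from hour 16 on it was 5. With each clock time fitted alone 2056 passed at 22:00. Without the filter 7416 passed at 18:00, of which 2498 were higher and 4918 lower, 699 differed between clock times and 1646 between trees. DESeq2 called 314 differences between clock times and 247 between trees. The tree by date count was 22 with DESeq2's size factors, 1 at 1 CPM in every library, 30 with a filter over all 72 libraries, and 3 when the 18:00 pair of tree 3A was omitted.

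At an adjusted p under 0.01 the counts were 3985 for the mean, 1894 at 18:00, 995 at 22:00, 443 at both, 3 for the difference and 3 by tree. At 2-fold or more they were 387, 649, 350, 142 and 36 for the first 5 of these. With single trees left out, the mean count ran from 4877 to 7923, that at 18:00 from 2430 to 5067, at 22:00 from 1005 to 2876, at both from 467 to 1353, the difference from 4 to 138, and tree by date from 3 to 50. The cause was not tested. Of the 250 recomputed mean changes of named transcripts 243 kept their call, and of 247 differences between clock times 131 did. Of the rarest class 6.00% passed, and the part of counting depth in that share was not tested.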

Other observations

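The transcript psme_t090563 stood at 1435 CPM in tree 1A at 14:00 on day 2 and at 259.9 CPM in the same tree at 22:00 on day 1, while it stayed at or under 1.66 CPM in all other libraries of the series. Between these collections tree 1A held at most 0.400 CPM. Scaled over all 72 libraries, psme_t004860 stood at 379 to 763 CPM in trees 3A and 3B throughout. It stood at 15.9 and 24.2 CPM in tree 2A on the first evening and at 1.35 to 2.76 CPM in each later collection of that tree, and it had been at 23.6 CPM there at 10:00 on day 1. In tree 2B it stood at 1.78 to 3.06 CPM until 14:00 on day 2, and at 19.7 and 15.9 CPM on the second evening.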
